A study of Mus musculus with 13 samples.

Results

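The genes described here encode the matrix metalloproteinases (MMPs), the ADAMTS proteases (a disintegrin and metalloproteinase with thrombospondin motifs), the ADAMTS-like proteins and the tissue inhibitors of metalloproteinases (TIMPs). They were taken by name from the gene count table, as every gene whose symbol is Mmp, Adamts or Timp followed by a number or begins with Adamtsl. This gave 49 of 34419 genes, of which 21 are Mmp, 19 Adamts, 5 Adamtsl and 4 Timp genes, and no gene was dropped as a pseudogene. After the filter on low counts, 39 could be tested, namely 14 Mmp, 16 Adamts, 5 Adamtsl and 4 Timp genes. Mmp1b and Mmp7 had no row in the gene count table and so were not analysed here.

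RNA was sequenced from gluteal white adipose tissue (WAT), a posterior subcutaneous fat depot, of 13 male C57BL/6J mice. The mice carried no stated transgene or mutation. They were kept at 22°C (n = 7) or at 29°C (n = 6), thermoneutrality for mice, from birth until 13 weeks of age. All of them, in both groups, had the posterior hair removed once weaned, and all were housed singly with minimal bedding and no nesting material, so the comparison is of housing temperature in animals with reduced insulation. Each library came from whole tissue. The comparison asks which matrix-degrading enzymes and inhibitors differ in transcript level between fat kept cool and fat kept warm.

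MMPs and ADAMTS proteases are zinc-dependent enzymes that cut proteins of the extracellular matrix. They are made as inactive precursors, and removal of a propeptide exposes the catalytic zinc. TIMPs bind the active site of MMPs and of some ADAM and ADAMTS proteases, while ADAMTS-like proteins share the ancillary domains of ADAMTS proteases but lack the catalytic domain. In fat, the matrix around each adipocyte is remodelled as cells enlarge and vessels grow, and stromal cells, endothelial cells, macrophages and adipocytes all contribute these proteins.

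Of the 39 tested genes, 3 passed the adjusted p threshold of 0.1 in edgeR's quasi-likelihood test, against 1.94% of all 17779 genes tested. Adamts5 and Adamts10 were lower at 22°C, against a background of 1.21% called lower, and Mmp11 was higher at 22°C, against 0.731% called higher. At an unadjusted p below 0.05 there were 9 of the 39, with 2 higher and 7 lower at 22°C, and 18.5% of all genes passed that mark (10.3% higher and 8.2% lower). The median log2 fold change (22°C relative to 29°C) was -0.11 over the 39 genes and 0.01 over all genes tested, with 17 of the 39 higher and 22 lower at 22°C. Of all genes tested, 9167 were higher and 8612 lower. In DESeq2, which called 10.2% of all genes with an adjusted p, 6 of 35 were called, adding Timp3, Timp4 and Adamtsl4, all lower at 22°C. No member passed a stricter adjusted p of 0.05 in edgeR.

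**Figure D1:**
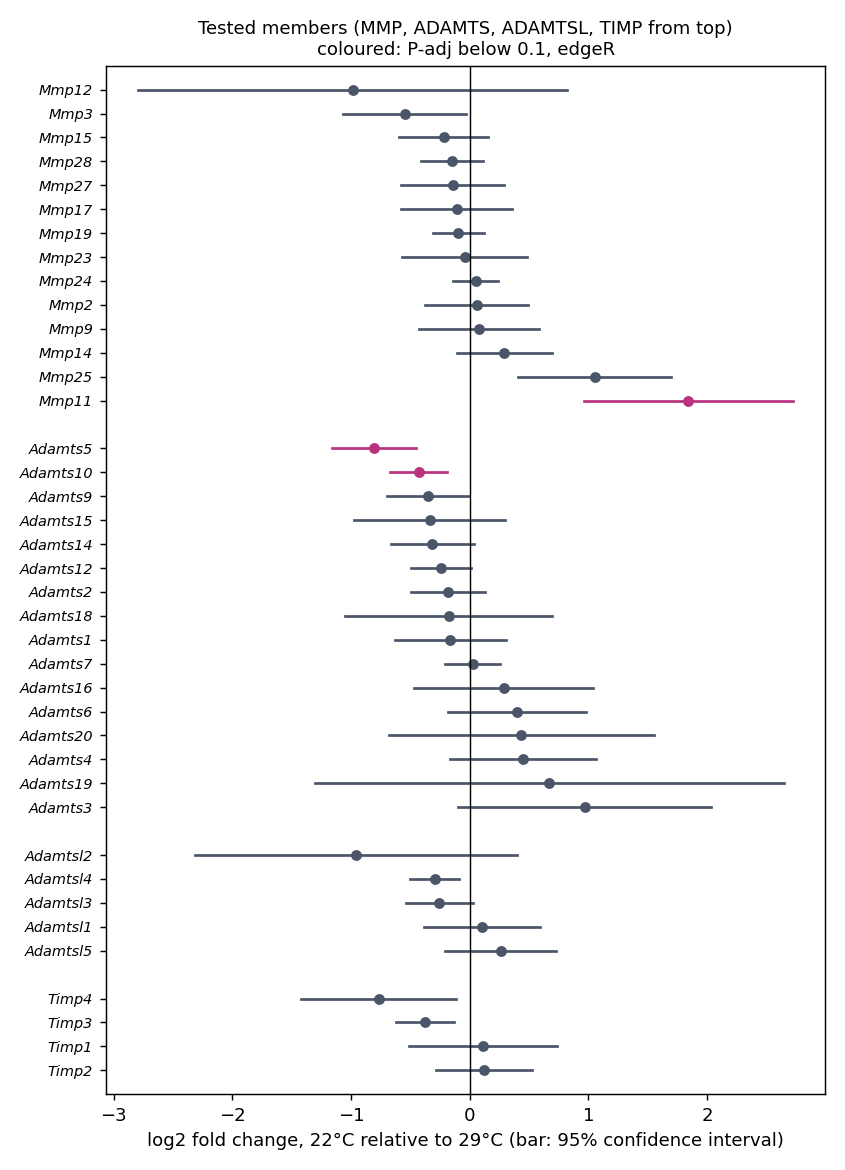
Log2 fold change at 22°C relative to 29°C (horizontal axis) for the 39 tested genes, grouped by family from top to bottom as MMP, ADAMTS, ADAMTSL and TIMP, with 95% confidence intervals from edgeR as bars. The coloured genes passed an adjusted p of 0.1: Mmp11 at 1.84, Adamts5 at -0.81 and Adamts10 at -0.43.

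The libraries held 22356637 to 25245785 counts. The totals fell into a lower cluster, which held 22°C replicates 1 to 5, and a higher cluster, where all of the 29°C group lay together with 22°C replicates 6 and 7. Within the higher cluster alone, 2 mice at 22°C against 6 at 29°C, the 3 genes called over all mice had larger log2 fold changes in the same direction and adjusted p of 0.230 to 0.336. For Mmp11 these 2 mice stood at 40.5 and 168.4 CPM, the lowest and the highest of the 22°C group. The lower cluster has no mouse at 29°C and gives no comparison. Adipoq and Plin1, defining genes of the adipocyte, were high in every library, with 1599 to 3094 counts per 1000000 counts (CPM) of Adipoq. Of 10 mature adipocyte markers 1 was called, Lep, lower at 22°C (501.6 to 940.0 CPM against 971.6 to 1617 CPM at 29°C, log2 fold change -0.78, adjusted p = 0.0564). Of 7 tested lymphocyte markers all had positive log2 fold changes and 1 was called, Cd3e, higher at 22°C (0.4663 to 2.03 CPM against 0.0842 to 0.541 CPM, adjusted p = 0.0817). DESeq2 called none of the 5 lymphocyte markers to which it gave an adjusted p. The part of these cell types in the results for the family was not tested. Skeletal muscle RNA varied most: 13 muscle markers summed to between 767.4 and 79490 CPM in the 22°C mice, against 116.3 to 6462 CPM in the 29°C mice. All 13 had positive log2 fold changes, with none past the threshold in edgeR. Of these, 6 had an unadjusted p below 0.05 (background 10.3% higher). DESeq2 called 6, all higher, against 914 of all 16388 genes with an adjusted p called higher. The highest sums, 58350 and 79490 CPM, were those of 22°C replicates 1 and 7. The summed markers of macrophages (801.5 to 1612 CPM at 22°C, 885.7 to 1640 CPM at 29°C) and of stromal cells and progenitors (3088 to 4652 CPM at 22°C, 3373 to 4516 CPM at 29°C) overlapped. EdgeR called none of either list. Of 12 stromal markers 9 had negative log2 fold changes, and 2 had an unadjusted p below 0.05, both lower (background 8.2%). DESeq2 called 1 of the 12, Dpt, lower, against 762 of all 16388 genes with an adjusted p called lower. Of 14 macrophage markers 8 had negative log2 fold changes, and DESeq2 called none. In whole tissue, fewer cells of a type and less RNA per cell cannot be told apart.

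Promoter sequence is shown for the stromelysins and for neighbours of Mmp3, because a cluster of Mmp genes on chromosome 9 held both an abundant and several nearly silent members. The stromelysins encoded by Mmp3 and Mmp10 have broad specificity and also activate other MMPs. RefSeq (GRCm38.p6) gave a window for 34 of the 49 genes, searched over the 250 bases before the transcription start. The AP-1 motif TGANTCA, which is its own reverse complement, lay in 6 of 8 members of that cluster, in 0 of 26 other members and in 6.75% of all 32851 windows. The TATA motif TATAAA, searched on both strands, lay in 5 of 8 and 3 of 26, against 12.4% of all windows. The GC box GGGCGG, also on both strands, lay in 0 of 8 and 20 of 26, against 32.7% of all windows. These are matches of letters and not measured binding sites. The last 100 bases before the start are given 5′ to 3′ on the gene's strand, with matches of these motifs in capitals.
Mmp3, chr9:7445722-7445821, plus strand: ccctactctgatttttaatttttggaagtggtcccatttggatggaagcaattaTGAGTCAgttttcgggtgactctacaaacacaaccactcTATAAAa
Mmp10, chr9:7502242-7502341, plus strand: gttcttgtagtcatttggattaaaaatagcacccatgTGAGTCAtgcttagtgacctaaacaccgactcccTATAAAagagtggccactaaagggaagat
Mmp13, chr9:7272414-7272513, plus strand: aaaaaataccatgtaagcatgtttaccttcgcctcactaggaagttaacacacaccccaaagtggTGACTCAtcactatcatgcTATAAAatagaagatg
Mmp27, chr9:7571296-7571395, plus strand: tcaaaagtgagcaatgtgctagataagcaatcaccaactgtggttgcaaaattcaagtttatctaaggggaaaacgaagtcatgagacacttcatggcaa
Mmp11, chr10:75932503-75932602, minus strand: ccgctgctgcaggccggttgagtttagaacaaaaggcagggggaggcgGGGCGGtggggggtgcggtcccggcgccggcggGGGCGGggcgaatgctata

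Mmp3, Mmp10 and Mmp13 thus each have an AP-1 and a TATA motif close to the start, yet their levels per kilobase of exons lay far apart. Mmp3 stood at 25.3 CPM per kb at 22°C and 37.0 at 29°C, while Mmp10 had 0.0249 and 0.0793 CPM per kb and Mmp13 had 0.0349 and 0.0409. Mmp27, with none of the 3 motifs in the printed stretch, stood at 2.35 and 2.59 CPM per kb. Mmp11, which has GC boxes and no AP-1 motif there, stood at 29.1 CPM per kb at 22°C and 8.11 at 29°C.

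On this per-length scale the family was led by an inhibitor. Timp2 had the highest mean level of all 49 genes, 182 CPM per kb at 22°C and 168 at 29°C, followed by Mmp2 with 90.5 and 87.0. At 29°C, Timp3 (51.9 CPM per kb), Timp4 (47.1), Adamts5 (44.2) and Mmp3 (37.0) came next. At 22°C the same 4 genes stood at 40.0, 27.7, 25.3 and 25.3, and Mmp11, at 29.1, lay between Timp3 and Timp4. At the other end, the collagenase genes Mmp1a, Mmp8 and Mmp13, which encode the classical secreted enzymes that cut fibrillar collagen, were too low to be tested. So were Mmp10, Mmp16, Mmp20, Mmp21, Adamts8, Adamts13 and Adamts17. Mmp1a and Mmp20 had 0 counts in all 7 mice at 22°C and 2 and 3 counts in total at 29°C, and a count of 0 allows up to 3 counts in a library. Adamts8 had 112 counts in total at 22°C and 34 at 29°C, the most among these 10 genes at 22°C.

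**Figure D2:**
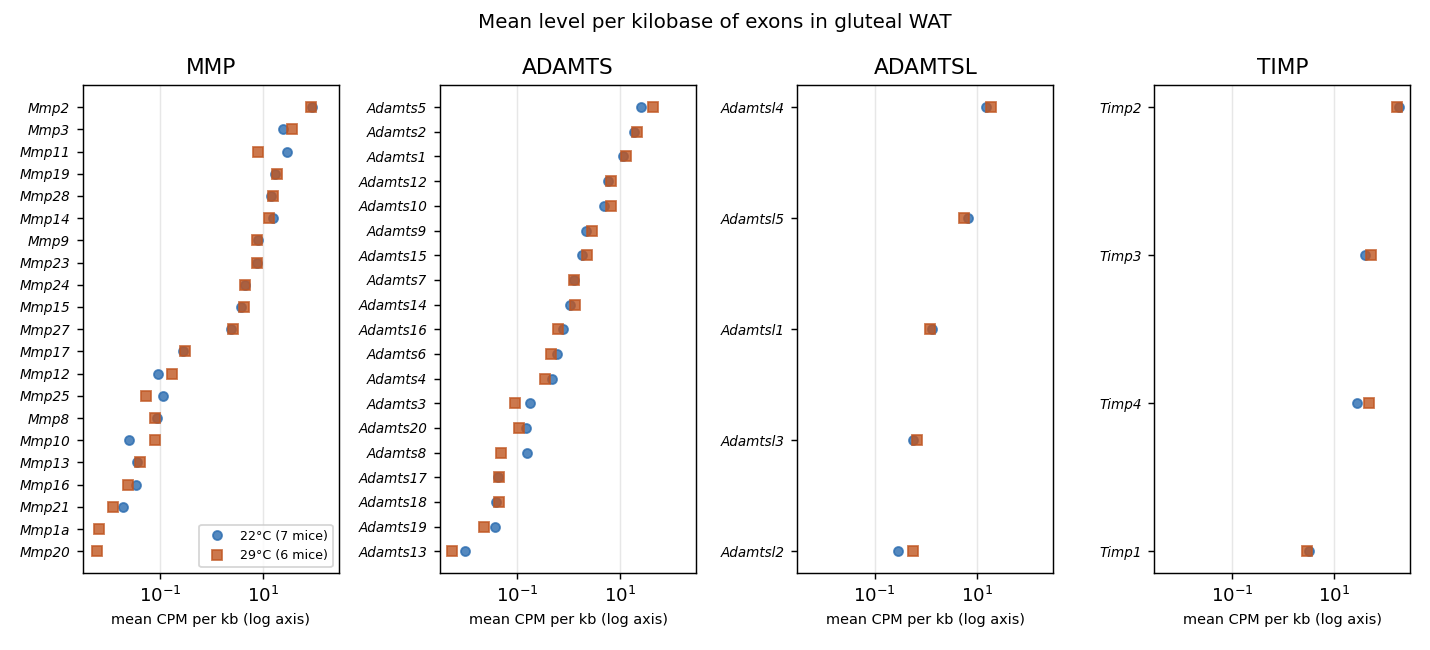
Mean level of each of the 49 genes in CPM per kilobase of exons (horizontal, log axis) at 22°C (circles, 7 mice) and 29°C (squares, 6 mice), by family. Mmp1a and Mmp20 have no circle because they were at 0 in every mouse at 22°C. Timp2 (182 and 168 CPM per kb) and Mmp2 (90.5 and 87.0) lie highest.

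The gelatinases Mmp2 and Mmp9 degrade denatured collagen and basement membrane collagen. Neither passed the threshold in edgeR or DESeq2, and neither had an unadjusted p below 0.05. At 22°C Mmp2 ran from 144.8 to 446.1 CPM (median 327.4), and the 29°C mice spanned 259.1 to 372.7 CPM (median 273.4). The 22°C mice thus enclosed the whole range of the 29°C mice, and replicate 1 at 22°C was the lowest of all 13. The means of 305 ± 96.2 CPM (SD, n = 7) and 293 ± 43.5 CPM (n = 6) gave a log2 fold change of 0.06 with a 95% interval of -0.38 to 0.49 (adjusted p = 0.909). Its sign turned in the fit without 22°C replicate 6 (-0.0585). Mmp9 was at 28.4 ± 10.6 CPM and 26.9 ± 4.84 CPM, with a log2 fold change of 0.08 (interval -0.43 to 0.58).

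Mmp11 (ENSMUSG00000000901.18) encodes a stromelysin of stromal cells that, unusually, is activated inside the cell by furin. Its CPM at 22°C were 163.6, 42.3, 55.2, 51.1, 44.5, 40.5 and 168.4 in replicates 1 to 7, and at 29°C 21.8, 19.0, 13.8, 27.7, 33.9 and 19.0 in replicates 1 to 6. All 7 mice at 22°C lay above all 6 at 29°C, the only such separation among the 39 tested members, against 1.24% of all genes tested. Replicates 1 and 7 at 22°C stood more than 100 CPM above the other 5. The log2 fold change was 1.84 (SE 0.41, adjusted p = 0.0724), and the means were 80.8 ± 58.4 and 22.5 ± 7.19 CPM.

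The same replicates 1 and 7 had the highest summed muscle markers. Without both, Mmp11 was higher at 22°C by 1.05 on the log2 scale (adjusted p = 0.0592), and with the muscle score as a covariate by 1.13 (adjusted p = 0.208). The call was lost without 22°C replicate 1 and without any of the 6 mice at 29°C (adjusted p 0.102 to 0.170 in these 7 fits), and within the higher cluster of totals (log2 fold change 2.21, adjusted p = 0.232). That cluster holds the muscle-rich replicate 7 at 168.4 CPM and, of the other 22°C mice, replicate 6 alone, at 40.5 CPM. Both muscle-rich mice were the highest of the 7 at 22°C for 5 of 39 members (12.8%), Mmp11, Mmp12, Mmp15, Adamts20 and Adamtsl5, and for 17.0% of all genes tested.

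Mmp11 also shares exon sequence with a gene on the opposite strand. In GENCODE M21, 155 of its exon bases (5.58%) lie within exons of Chchd10, which encodes a mitochondrial protein abundant in muscle and heart. Chchd10 stood at 247.2, 55.4, 82.1, 74.8, 60.4, 54.8 and 283.8 CPM at 22°C and at 29.9, 11.8, 12.4, 24.0, 41.0 and 23.4 CPM at 29°C. It was higher at 22°C by 2.37 on the log2 scale (SE 0.50, adjusted p = 0.0666), and the same 2 mice were its highest. With the log2 CPM of Chchd10 as a covariate, chosen after seeing the data, the log2 fold change of Mmp11 was -0.10 (adjusted p = 0.869). Every mouse at 22°C lay above every mouse at 29°C for Chchd10, as for 1.24% of all genes tested. This fit therefore cannot separate Chchd10 from housing temperature, and no conclusion is drawn from it. Whether the counting used strand is not given in the sources used here, so reads of Mmp11 and Chchd10 in the shared stretch cannot be told apart, and their part in the Mmp11 counts was not tested.

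**Figure D3:**
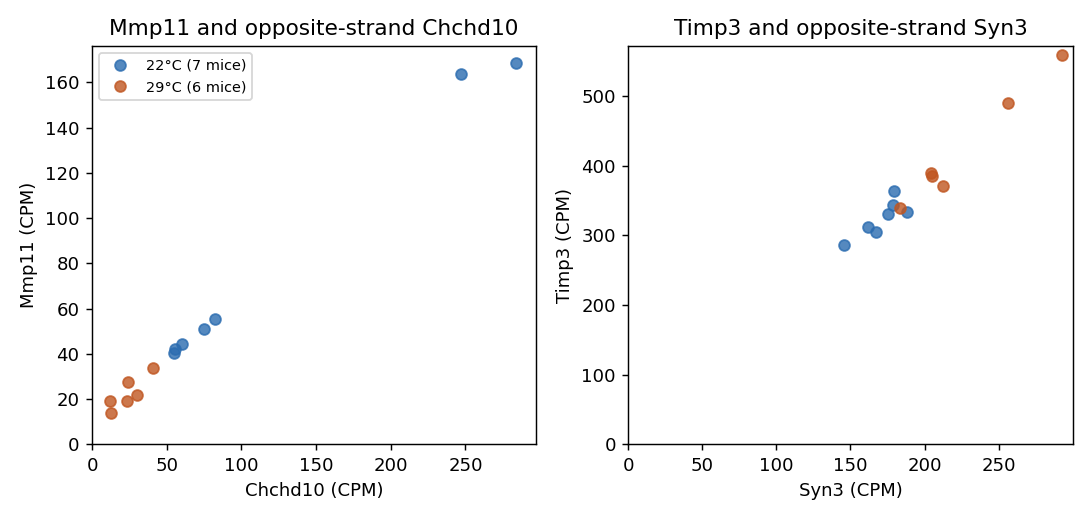
CPM per mouse of Mmp11 against Chchd10 (left) and of Timp3 against Syn3 (right), pairs of genes on opposite strands that share exon bases; each point is a mouse, in blue at 22°C and in orange at 29°C. On the left, 2 mice at 22°C (163.6 and 168.4 CPM of Mmp11) stand apart along both axes, and on the right Syn3 lies at 0.492 to 0.573 of the Timp3 level in every mouse.

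Mmp3, another stromelysin, went the other way and did not pass the threshold. It stood at 45.6 ± 16.6 CPM at 22°C and 66.7 ± 16.2 CPM at 29°C, a log2 fold change of -0.55 (interval -1.06 to -0.03, adjusted p = 0.244). The groups overlapped, from 20.5 to 67.5 CPM and from 47.3 to 90.6 CPM.

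None of the 5 tested membrane-type MMPs, which act at the cell surface, was called. Of the 5, 1 had an unadjusted p below 0.05, Mmp25 (background 10.3% higher). DESeq2 called none of the 4 to which it gave an adjusted p, which did not include Mmp25. Mmp14, which cuts collagen at the cell surface and activates the Mmp2 precursor, stood at 95.3 ± 27.5 CPM at 22°C (48.6 to 122.6) and 77.9 ± 10.6 CPM at 29°C (63.5 to 95.1). Its log2 fold change was 0.29 (interval -0.11 to 0.69, adjusted p = 0.426). Mmp25, an MMP of leukocytes with a lipid anchor, was low throughout, with 94 counts in total at 22°C and 43 at 29°C. It stood at 0.738, 0.549, 0.498, 0.629, 0.848, 0.655 and 0.181 CPM at 22°C and between 0.154 and 0.339 CPM (median 0.309) at 29°C. Only 22°C replicate 7 fell within the 29°C range, and the log2 fold change of 1.05 (SE 0.30) had an adjusted p of 0.122. Without that mouse the adjusted p was 0.0511, past the threshold. Mmp25 passed the filter on low counts in 7 of the 13 fits that left out 1 mouse and was not tested in the others. At counts this low, both its test and its call depended on which mice were kept, and no conclusion is drawn from them. The summed neutrophil markers were low and overlapped, at 5.74 to 24.1 CPM at 22°C and 6.57 to 13.3 CPM at 29°C. Of 5 tested neutrophil markers 4 had positive log2 fold changes (median 0.42), against 9167 of all 17779 genes tested. None was called in edgeR. DESeq2 called 1 of 4, Ngp, higher at 22°C, against 914 of all 16388 genes with an adjusted p called higher. Their part in the Mmp25 counts was not tested.

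Mmp19, expressed in stroma and epithelium, was among the 3 Mmp genes with the highest mean CPM over all 13 mice, though Mmp11 was above it at 22°C and Mmp3 at 29°C. At 22°C it averaged 62.2 ± 9.87 CPM (52.9 to 79.6), against 66.4 ± 6.30 CPM (60.4 to 75.2) at 29°C, so the 29°C mice all lay inside the 22°C range. The log2 fold change was -0.10 (interval -0.31 to 0.12, adjusted p = 0.653). In all, 789 of its exon bases (22.3%) are shared with Tmem198b on the opposite strand, and Tmem198b stood at 27.3 to 39.4 CPM. The elastase gene Mmp12 was low and uneven. Its lowest and highest mice had 0.0839 and 2.58 CPM at 22°C, against 0.126 and 3.05 CPM at 29°C, with an interval of -2.79 to 0.82 for its log2 fold change.

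Adamts5 (ENSMUSG00000022894.7) had the smallest p of all members. It encodes an aggrecanase, a protease that cuts the large proteoglycans aggrecan and versican. Its CPM at 22°C were 219.6, 405.6, 261.6, 325.6, 232.3, 221.5 and 242.3, and at 29°C 484.5, 515.3, 317.1, 477.3, 525.4 and 545.4. All but 1 of the 6 mice at 29°C lay above every mouse at 22°C, and 29°C replicate 3 lay inside the 22°C range, below 22°C replicates 2 and 4. The means were 273 ± 69.0 and 478 ± 82.6 CPM (25.3 and 44.2 CPM per kb), a log2 fold change of -0.81 (SE 0.16, interval -1.16 to -0.46, adjusted p = 0.0610).

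The direction for Adamts5 held in every fit that left out 1 mouse (log2 fold change -0.93 to -0.76). The call was lost without 22°C replicate 1 or 29°C replicates 1, 2, 5 or 6 (adjusted p 0.1003 to 0.138) and kept in the other 8 fits (0.0244 to 0.0990). Within the higher cluster of totals the log2 fold change was -1.05 (adjusted p = 0.230), and without both muscle-rich mice -0.73 (adjusted p = 0.105). In GENCODE M21 neither Adamts5 nor Adamts10 shares exon bases with another gene.

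**Figure D4:**
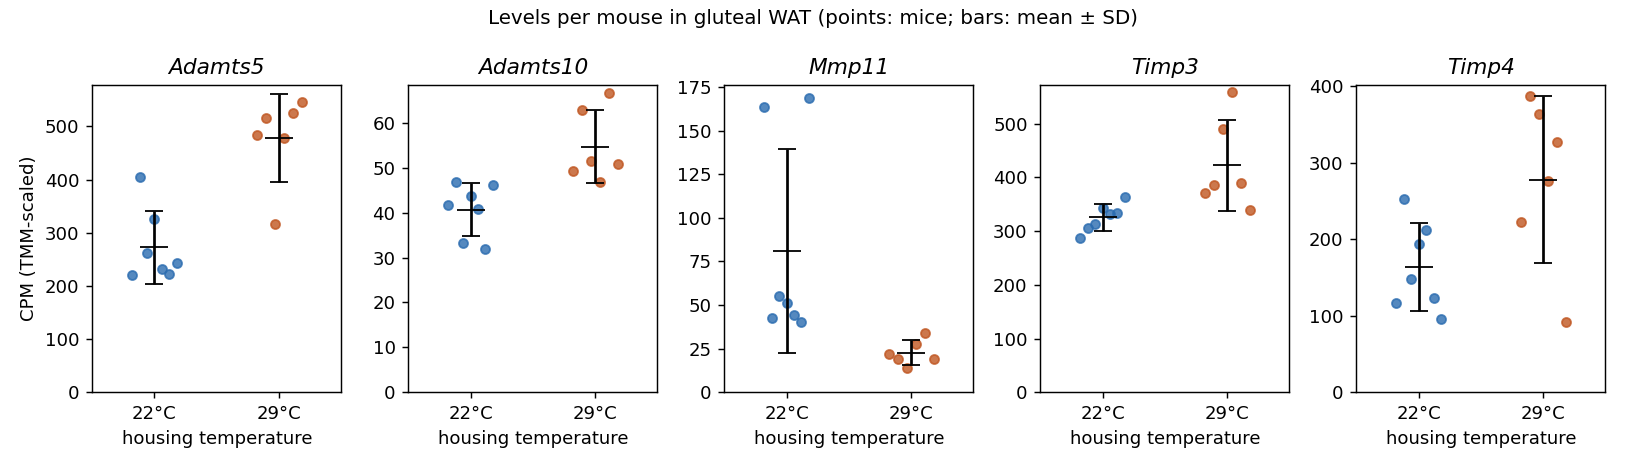
CPM of Adamts5, Adamts10, Mmp11, Timp3 and Timp4 in each mouse (points) at 22°C (n = 7) and 29°C (n = 6), with the mean and SD as bars and each vertical axis starting at 0. Mmp11 is the only one of the 5 whose groups do not overlap, and 29°C replicate 3 (317.1 CPM) is the low point for Adamts5.

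Among the 6 tested proteoglycanases, Adamts5 was the only one called. In all, 4 of the 6 had negative log2 fold changes, and 2 of these had an unadjusted p below 0.05 (background 8.2% lower). Adamts9, found in vessels and many stromal tissues, stood at 33.1 ± 5.47 CPM at 22°C and 42.3 ± 11.2 CPM at 29°C (log2 fold change -0.35, adjusted p = 0.265). Adamts1, an inducible protease of versican, had 61.8 ± 15.4 and 69.1 ± 24.7 CPM (log2 fold change -0.16, interval -0.63 to 0.30). Adamts4, the other main aggrecanase, was low at 2.25 ± 0.508 and 1.65 ± 0.788 CPM, with a log2 fold change of 0.45 (interval -0.17 to 1.06).

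Adamts10 (ENSMUSG00000024299.18), which binds fibrillin microfibrils and has little proteolytic activity of its own, was the other gene called lower at 22°C. Its CPM were 41.7, 46.8, 33.3, 43.8, 40.7, 32.0 and 46.3 at 22°C and 49.4, 62.9, 51.6, 46.8, 66.8 and 50.8 at 29°C. The groups met at 46.8 CPM, where 22°C replicate 2 and 29°C replicate 4 were nearly equal, and all other mice at 29°C lay above all at 22°C. The log2 fold change was -0.43 (SE 0.11, adjusted p = 0.0994), just inside the threshold. The call was kept without 22°C replicate 2 or replicate 6 and lost without any of the other 11 mice (adjusted p 0.105 to 0.199), while the log2 fold change stayed between -0.47 and -0.37. Within the higher cluster of totals it was -0.49 (adjusted p = 0.336). Its relative Adamts6 had 4.68 ± 1.77 and 3.54 ± 1.08 CPM, with a log2 fold change of 0.40 (interval -0.19 to 0.98).

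The procollagen N-proteinases remove the amino-terminal propeptide of fibrillar procollagens. None of the 3 was called, none had an unadjusted p below 0.05, and DESeq2 called neither of the 2 to which it gave an adjusted p, Adamts2 and Adamts14. Adamts2, the most abundant, spanned 138.4 to 209.3 CPM in the 22°C mice (median 176.2), against 145.2 to 248.3 CPM in the 29°C mice (median 193.4). The ranges overlapped over most of their length, with a log2 fold change of -0.19 (interval -0.50 to 0.13, adjusted p = 0.529). Adamts14 had -0.32 and Adamts3 0.97 on the log2 scale, the latter from 147 and 74 counts in all. Adamts12, which cuts cartilage oligomeric matrix protein, had 46.2 to 78.6 CPM in the 22°C mice (median 60.0), against 64.4 to 89.6 CPM in the 29°C mice (median 72.9), a log2 fold change of -0.24 (interval -0.49 to 0.01, adjusted p = 0.296).

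Of the 5 ADAMTS-like genes, none was called in edgeR and 1, Adamtsl4, had an unadjusted p below 0.05 (background 8.2% lower). DESeq2 called Adamtsl4 alone of the 5 (adjusted p = 0.0609), against 762 of all 16388 genes with an adjusted p called lower. Adamtsl4 encodes a fibrillin-binding protein of microfibrils. It stood at 63.8 ± 9.58 CPM at 22°C (50.7 to 76.7) and 78.4 ± 6.26 CPM at 29°C (68.7 to 87.1), and the upper 22°C mice overlapped the lower 29°C mice. The log2 fold change was -0.30 (SE 0.10, edgeR adjusted p = 0.160). Without 22°C replicate 6 the adjusted p was 0.0913, past the threshold. Adamtsl5 had 31.1 ± 10.9 and 26.0 ± 4.73 CPM (log2 fold change 0.26), and Adamtsl1 16.6 ± 6.18 and 15.5 ± 3.23 CPM (0.10). Neither interval excluded 0. The estimate for Adamtsl5 was -0.01 with the muscle score as a covariate.

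Among the 4 inhibitors, Timp3 and Timp4 had lower means at 22°C without passing the edgeR threshold. No Timp gene was called in edgeR. Of the 4, 2 had an unadjusted p below 0.05, both lower (background 8.2%). DESeq2 called the same 2, against 762 of all 16388 genes with an adjusted p called lower. Timp2 both inhibits MMPs and takes part in the activation of the Mmp2 precursor. The 22°C mice spanned 436.3 to 970.2 CPM (median 755.3), against 572.1 to 805.9 CPM in the 29°C mice (median 635.8). The 29°C range lay inside that of 22°C, and the log2 fold change was 0.12 (interval -0.28 to 0.52, adjusted p = 0.775).

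Timp3 is the inhibitor that stays bound to the matrix, and it inhibits ADAMTS4 and ADAMTS5 as well as MMPs and ADAM17. Its CPM were 286.9, 305.1, 312.4, 343.7, 331.4, 334.3 and 364.1 at 22°C and 371.2, 385.5, 490.2, 558.7, 389.3 and 338.9 at 29°C. Only 29°C replicate 6 lay within the 22°C range. The log2 fold change was -0.38 (SE 0.11, edgeR adjusted p = 0.138, DESeq2 adjusted p = 0.0290). In GENCODE M21 the Timp3 gene lies within Syn3, which encodes a synapsin of neurons and runs on the opposite strand, and 1733 of its exon bases (21.3%) are shared. Syn3 counts followed Timp3 at a ratio of 0.492 to 0.573 in all 13 mice, with a log2 fold change of -0.40 (SE 0.10, adjusted p = 0.0998). Without the strand setting the counts of the pair cannot be told apart in the shared stretch.

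Timp4, an inhibitor known for high levels in fat and heart, had 116.8, 252.1, 148.4, 194.0, 212.4, 122.9 and 96.2 CPM at 22°C and 222.5, 387.0, 363.4, 276.2, 326.9 and 91.2 CPM at 29°C. At 29°C, 4 mice lay above all at 22°C, while 29°C replicate 6 was the lowest of all 13. The log2 fold change was -0.77 (SE 0.30, edgeR adjusted p = 0.210, DESeq2 adjusted p = 0.0918). Both muscle-rich mice at 22°C were among the 3 lowest. They were the lowest of the 22°C mice for 3 of 39 members (7.69%), Mmp9, Mmp24 and Timp4, and for 13.5% of all genes tested. Timp1, the inducible inhibitor, was low at 2.81 ± 0.917 and 2.60 ± 1.12 CPM (log2 fold change 0.11, interval -0.52 to 0.74).

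Summed over members, the 19 Adamts genes came to 693 ± 91.7 CPM at 22°C (580.2 to 830.9) and 965 ± 113 CPM at 29°C (766.3 to 1074), of which Adamts5 was 273 and 478 CPM. The 21 Mmp genes came to 742 ± 126 and 688 ± 69.5 CPM, of which Mmp11 was 80.8 and 22.5 CPM (29.1 and 8.11 CPM per kb). The 4 Timp genes came to 1201 ± 247 and 1356 ± 193 CPM. Per kilobase, the ratio of summed Timp to summed Mmp transcripts was 1.15 ± 0.203 at 22°C and 1.31 ± 0.177 at 29°C, and the groups overlapped. Timp2 made up 71.0% ± 5.74 of the summed Timp level per kilobase at 22°C and 62.5% ± 6.49 at 29°C. These sums are descriptions and were not tested.

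Of 34 tested genes on a list of matrix proteins and other substrates of these enzymes, 2 were called, both lower at 22°C (background 1.21%), and 12 had an unadjusted p below 0.05, all lower (background 8.2%). Nid1, which encodes a basement membrane linker, stood at 805 ± 73.5 CPM at 22°C (694.4 to 918.9) and 1060 ± 81.6 CPM at 29°C (932.6 to 1183). Its groups did not overlap (background 1.24%), and the log2 fold change was -0.40 (SE 0.08, adjusted p = 0.0689). Col6a3, a chain of the microfibrillar collagen VI around adipocytes, had 290 ± 65.0 and 434 ± 57.9 CPM (log2 fold change -0.58, SE 0.14, adjusted p = 0.0896). The median over the list was -0.22, and 23 of 34 were lower, against 8612 of all 17779 genes tested. DESeq2 called 8 of 33, all lower, against 762 of all 16388 genes with an adjusted p called lower. Leaving out 1 mouse lost the call of Nid1 in 6 of 13 fits and that of Col6a3 in 11 of 13 (adjusted p up to 0.163 and 0.207, each highest without 29°C replicate 3). With the muscle score as a covariate the log2 fold change was -0.40 for Col6a3 (adjusted p = 0.228) and -0.33 for Nid1 (0.185). With the cluster of totals as a covariate it was -0.56 (0.334) and -0.40 (0.273), estimates that rest on the mice of the higher cluster.

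Of 27 tested activators and cofactors, such as furin and the plasminogen activators, none was called in edgeR. In all, 4 had an unadjusted p below 0.05 (1 higher and 3 lower, against 18.5% of all genes in either direction). DESeq2 called 2 of 26, both lower, against 762 of all 16388 genes with an adjusted p called lower. Of 28 other extracellular proteases, 1 was called, lower at 22°C (background 1.21%), and 7 had an unadjusted p below 0.05, all lower (background 8.2%). DESeq2 called 4 of 27, all lower, against 10.2% of all genes in either direction. The gene called in edgeR was Htra3, a secreted serine protease, at 310 ± 39.2 CPM at 22°C and 418 ± 52.8 CPM at 29°C (log2 fold change -0.43, SE 0.10, adjusted p = 0.0873). Its call was lost in 9 of 13 fits that left out 1 mouse (adjusted p up to 0.178, highest without 29°C replicate 3) and with the muscle score as a covariate (adjusted p = 0.220). In that list 22 of 28 genes were lower at 22°C, with a median of -0.12, against 8612 of all 17779 genes tested that were lower.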

How the data were processed

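Gene counts were deposited by the authors for 13 gluteal WAT libraries, with a companion table of regularized log2 values that the authors made with DESeq2. Gene symbols were matched by identifier for 34006 of 34419 genes. The submitters' processing notes name FastQC, STAR 2.7.5a, featureCounts, DESeq2 and the build GRCm39. The annotation, strand setting and treatment of multi-mapped reads are not given in the sources used here. Groups came from the housing temperature in the labels. Counts were filtered with filterByExpr, scaled by TMM and tested with edgeR 4.0.16 (R 4.3.3), quasi-likelihood F test, Benjamini-Hochberg over 17779 genes, threshold 0.1; CPM are TMM-scaled. DESeq2 1.42.0 and limma 3.58.1 (on the authors' log2 values) were alternatives, besides filters, covariates and single mice left out. The fit was tested on simulated data. Exon lengths and overlaps are from GENCODE M21 (GRCm38), matched by gene identifier, since no annotation of GRCm39 was used here. Its Mmp1a entry is a polymorphic pseudogene, a protein-coding gene in RefSeq, and was kept.

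Values per mouse or group were given for members past the threshold, all Timp genes, the 3 most abundant Mmp, Adamts and Adamtsl genes, members without overlap and the 5 smallest p. Others, such as Mmp3, Mmp9, Mmp12, Adamts1, Adamts4, Adamts6 and Adamts9, were named to complete a role group. The members, lists and rules were chosen with earlier results of these data known. No 2 libraries were duplicates. Intervals of log2 fold changes are 95% confidence intervals of the difference between groups, estimated from the variation between mice.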

Additional observations from a re-analysis of the deposited data

Results flagged for a closer look

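Of 78 groups examined (39 tested genes at 2 temperatures), 6 held a mouse whose distance from its neighbour, as a share of the group's range, passed the 95% critical value of Dixon's test for the group's size. Chance gives about 1 in 20 groups. At 22°C, replicate 4 was high for Adamts1 (93.2 CPM, the others 49.3 to 67.3 CPM) and for Adamtsl2 (6.08 CPM, the others 1.22 to 2.71 CPM). At 22°C, replicate 1 was high for Mmp12 (2.58 CPM, the others 0.0839 to 0.678 CPM), and this mouse was 1 of the pair with the most muscle RNA. At 29°C, replicate 6 was high for Adamts14 (9.56 CPM, the others 6.10 to 6.96 CPM) and for Mmp15 (33.1 CPM, the others 19.6 to 24.1 CPM). At 29°C, replicate 3 was low for Adamts5 (317 CPM, the others 477 to 545 CPM), and in the fit without it Adamts5 remained past the threshold.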

How the results depend on the processing

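With all mice, 1 member was called higher and 2 lower at 22°C. None was called in either direction (0 and 0) at an adjusted p below 0.05, with no filter on low counts, with the muscle score or the cluster of totals as a covariate, or within the higher totals alone. DESeq2 called 5 lower (1 higher), a filter at a mean of 10 counts 1 lower, and the stromal score as covariate 1 lower and 0 higher. Chosen after seeing the data, leaving out both muscle-rich mice gave 2 higher (Mmp11 and Mmp25) and 0 lower. Without 1 mouse, 0 to 2 were called higher and 0 to 3 lower, and the median ranged from -0.17 to -0.07. The replicate block gave 0 higher and 1 lower (Adamts10), with adjusted p of 0.1089 for Mmp11 (log2 fold change 1.39) and 0.1002 for Adamts5 (-0.80). Same-numbered mice correlated at 0.0508 to 0.513, with replicate 5 the lowest, and 4 of 6 correlated best with their own number. This is a hint of pairing, but the labels tie the numbers to no shared litter or batch and 1 pair was near 0, so the block was kept as an alternative. Among genes outside the family, the block also ended the calls of Nid1 (adjusted p = 0.109) and Htra3 (0.111) and not that of Col6a3. The stromal score ended the calls of Col6a3 (0.1377) and Htra3 (0.1006), as did leaving out both muscle-rich mice (0.1344 and 0.1385). Neither of these settings ended that of Nid1. No filter on low counts, the muscle score, the cluster of totals and the higher totals alone ended all 3.

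Signs turned for genes that were not called. The cluster of totals as covariate and the higher totals alone take the temperature estimate from the same mice. With the cluster of totals as covariate and within the higher totals, respectively, log2 fold changes were 0.107 and 0.0938 for Adamts15, 0.30 and 0.31 for Adamts18, 0.0510 and 0.0443 for Mmp15, 0.107 and 0.0966 for Mmp17, 0.0171 and 0.0063 for Mmp19, 0.21 and 0.20 for Mmp23, 0.0148 and 0.0047 for Mmp28, and -0.0608 and -0.0722 for Mmp9. Adamts20 was at -0.0525 with the replicate block, -0.25 with the muscle score and -0.28 without the muscle-rich mice, and Adamtsl5 at -0.0118 with the muscle score. Mmp2 was at -0.0295 with the replicate block and -0.0021 in limma. Mmp23 was at 0.0243 with the macrophage score, 0.17 with the stromal score and 0.0750 without the muscle-rich mice. Mmp11 was at -0.10 with Chchd10 as a covariate, also chosen after seeing the data. Without 1 mouse, the range spanned 0 for Adamts1 (-0.29 to 0.0157), Adamts18 (-0.39 to 0.19), Adamts7 (-0.0092 to 0.0859), Adamtsl1 (-0.0637 to 0.20), Mmp2 (-0.0585 to 0.18), Mmp23 (-0.17 to 0.0569), Mmp24 (-0.0048 to 0.0932), Mmp9 (-0.0573 to 0.20) and Timp1 (-0.0355 to 0.24). Except for Mmp11 with Chchd10, the 3 called genes kept their direction under these alternatives. The cause of each change was not tested.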
